A study of Mus musculus with 48 samples.

Results

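The change across lights-on was compared between mice moved to long days for 2 weeks and mice kept in short days, in the pars tuberalis, the part of the pituitary that wraps its stalk and lies under the hypothalamus. All arrays labelled as ZT20 and ZT0 in these 2 photoperiods were taken, which gave 8 of the 48 arrays of the series, 2 per group. ZT counts hours from lights-on, so ZT20 precedes lights-on by 4 h and ZT0 is lights-on itself. Short days had 8 h of light and 16 h of darkness, and long days 16 h of light and 8 h of darkness. Short-day mice had therefore been dark for 12 h at ZT20 and for 16 h at ZT0, and long-day mice for 4 h and 8 h. By the clock times in the sample titles, lights came on 4 h earlier in long days. Short-day ZT20 and long-day ZT0 therefore fell at the same clock hour.

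All 8 arrays came from male CBA/N mice aged 8 weeks under light of 400 lux. Both groups first spent 3 weeks in short days; one then stayed in short days and the other went to long days, each for 2 weeks. Each array measured 1 pool, with 25 mice per time point, punched through a needle of 0.5 mm from slices 0.5 mm thick, and the procedure was done 2 times to give the replicates. Pooling removes the spread between mice, so p-values here measure the spread between pools. The labels do not state whether ZT0 tissue was taken just before or just after the light came on. The other 40 arrays, of the remaining times of day and of first long days with the light advanced or the dark delayed, entered the model for its estimate of spread, and enter a value only in daily courses, in the correlations with Egr1 and where short-day ZT12 or ZT16 is named.

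The pars tuberalis carries melatonin receptors at high density and makes thyrotropin, through which the length of the night reaches the neighbouring hypothalamus. Melatonin, secreted at night, acts there through inhibitory G proteins to lower cAMP, and its withdrawal at dawn is known to release cAMP signalling. Immediate early genes are transcribed within minutes of such signals without new protein synthesis. Clock genes form a loop in which activators (Arntl with Clock or Npas2) drive their own repressors (the Per, Cry and Nr1d genes) through E-box elements.

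Values are log2 levels, so a difference of 1 is a 2-fold change, and ± after a change is its SE from the fit. The quartiles of all probe sets over the 8 arrays were 5.40, 7.01 and 8.87. Over their 6 measured genes, markers of the pars tuberalis averaged 10.66 to 11.78 on the 8 arrays. Of these, Tshb and Cga, the subunits of thyrotropin, lay between 10.43 and 14.13. Astrocyte markers averaged 10.7 to 11.1 over 10 genes, and hypothalamic neuron markers 9.64 to 9.92 over 23. Markers of the pars distalis averaged 7.75 to 8.20 over their 12 measured genes, and those of tanycytes, which line the adjoining ventricle floor, 11.25 to 11.40 over 13. By the median absolute difference over all genes, 0.154, the 2 arrays of long-day ZT20 differed more than those of any of the other 23 groups. Over the clock genes only long-day ZT16 differed more. By correlation the arrays of short-day ZT16 were further apart (r = 0.9935 against 0.9951 for long-day ZT20). Replicate 2 of long-day ZT20 was at 8.30 for Mtnr1a, a melatonin receptor, against 9.85 for replicate 1. For the mean of 12 meningeal and fibroblast genes it was at 10.70 against 10.22, with the other 6 arrays at 10.44 to 10.69. Replicate 1 was thus the array apart for that mean. It was also the lowest of the 8 for astrocyte (10.70), microglia (8.06) and endothelial (8.43) markers. Calls in the difference between the steps that were lost without replicate 2 of long-day ZT20 are named below. The long-day step also rests on that array. Many of its calls were lost without it, and these are not named. Whether a long-day call given below held without that array is therefore not stated. Replicate 2 of both ZT20 groups also carried more growth hormone and prolactin signal of the pars distalis than replicate 1. Gh was at 8.91 against 6.37 in short days and 7.56 against 6.33 in long days, and Prl at 7.38 against 5.70 and 8.54 against 6.89; the part of this in the results was not tested. The 3' minus 5' signal of the actin control probes, which grows with RNA degradation, was 1.78 to 2.19 in short days and 1.43 to 1.71 in long days. Its part in the results was not tested beyond a fit with it as a covariate, in which the count for the difference between the steps stayed within 1.5 times, while the counts between photoperiods at ZT0 and ZT20 fell from 3630 to 873 genes and from 3564 to 1494.

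Lights-on was accompanied by far more called changes after the short night of long days than after the long night of short days. From ZT20 to ZT0, 71 of 18194 genes passed in long days (adjusted p below 0.05 in limma, 0.39% of genes), 52 of them higher and 19 lower. With each array centred on its median the split was 34 higher and 20 lower. In short days 2 genes passed (0.011%), Gata2 and Npas2, and both fell; 666 had an unadjusted p under 0.05 (3.66%), against 1025 in long days (5.63%). The long-day count was 34 without replicate 1 of long-day ZT0 and 31 without replicate 2, and the short-day count was 5 without replicate 2 of short-day ZT20. These 2 counts do not themselves show that the steps differ, which is the subject of the next test.

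In the test of the difference itself, the long-day step minus the short-day step, 41 genes passed (0.225% of genes), 30 with a higher step in long days (0.165%) and 11 with a lower one (0.0605%). An unadjusted p under 0.05 was found for 700 genes (3.85%). Of the 30, all had a positive long-day step and 28 a negative short-day step, with a median difference of 1.36 on the log2 scale. Both long-day ZT0 arrays lay above the other 6 arrays in 22 of the 30 (3.52% of all genes). All 11 lower genes had a negative long-day step and a positive short-day step, and in 5 of them long-day ZT0 lay below the other 6 arrays (3.99% of all genes). The same arrays chose these genes, so their signs and order describe the selection and support nothing further. Without replicate 2 of long-day ZT20, 33 genes passed (0.181%), 26 higher (0.143%) and 7 lower (0.0385%), and 28 of them were among the 41.

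**Figure D1:**
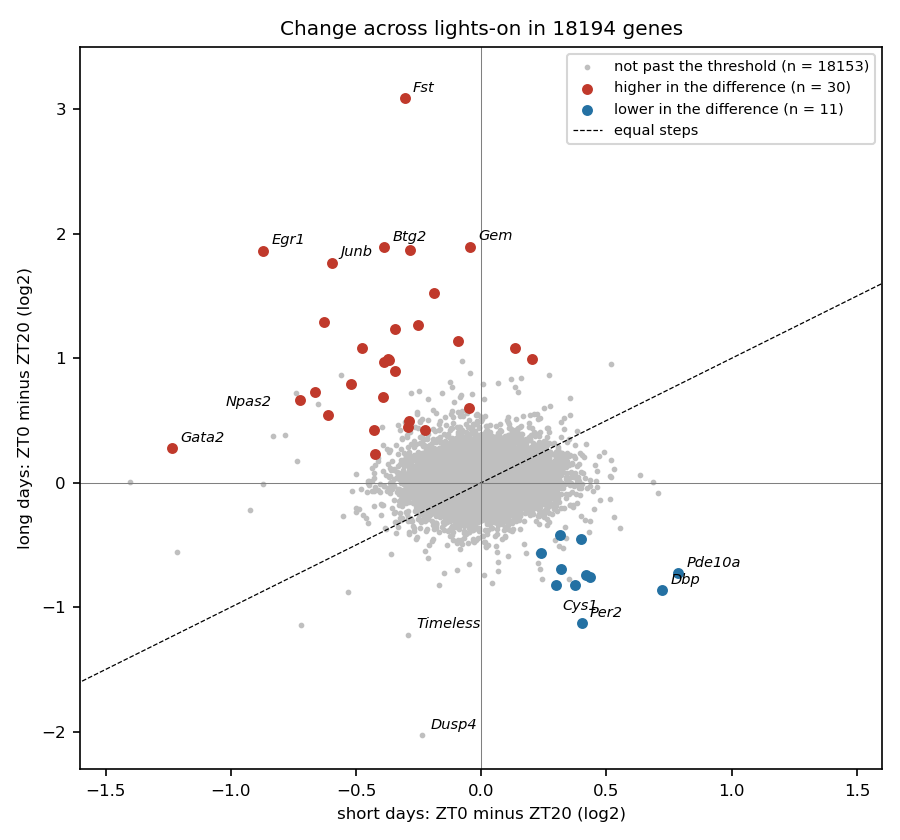
Change from ZT20 to ZT0 in short days (x axis, log2) against the change in long days (y axis, log2) for 18194 genes, each point 1 gene; red and blue points passed in the difference of the steps and the dashed line marks equal steps. The 30 red genes lie above the line, 28 of them left of 0, and the 11 blue genes lie below it and right of 0.

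Immediate early genes held the largest block of higher steps. Of 28 measured members of that list, 9 had a higher step in long days and 0 a lower one, beside 0.165% and 0.0605% of all genes. Of the 28 differences 24 were positive, with a median of 0.65 against 0.01 over all genes. The other 19 did not pass, and without replicate 2 of long-day ZT20 the higher steps were 8. In long days 10 of the 28 rose from ZT20 to ZT0, beside 0.286% of all genes. They were the same 9 and Maff, a small Maf factor that rose by 0.77 ± 0.12 (adjusted p = 0.000381). In short days 0 of the 28 passed, beside 0.011% of all genes. Of the 28 short-day changes 23 were negative, with a median of -0.15. In all 9 genes both long-day ZT0 arrays lay above the other 6 arrays, an order that their selection largely sets.

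Egr1, a zinc finger transcription factor, was at 11.23 and 11.26 at short-day ZT20, at 10.49 and 10.26 at short-day ZT0, at 9.75 and 10.45 at long-day ZT20, and at 12.05 and 11.88 at long-day ZT0. The order of the 2 times was thus opposite in the 2 photoperiods, with no overlap within either. It rose 3.64-fold across lights-on in long days (1.86 ± 0.20, adjusted p = 1.66e-07), changed by -0.87 ± 0.20 in short days without passing (adjusted p = 0.292), and its steps differed by 2.73 ± 0.28 (adjusted p = 1.8e-07). Long days were lower than short days at ZT20, by -1.15, and higher at ZT0, by 1.59, so both ends of the interval entered the difference.

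Junb, an AP-1 subunit, was at 7.36 and 6.92, then 6.66 and 6.43, in short days and at 6.51 and 6.34, then 8.27 and 8.12, in long days. Its steps differed by 2.36 ± 0.26 (adjusted p = 5.82e-07), and as with Egr1 its long-day level was lower at ZT20 (-0.71) and higher at ZT0 (1.65). Fosl2, another AP-1 subunit, was at 8.95 and 8.61, then 8.58 and 8.20, in short days and at 8.98 and 9.31, then 10.17 and 10.07, in long days. Its short-day arrays of the 2 times nearly met, while its long-day arrays were well apart, and its steps differed by 1.36 ± 0.19 (adjusted p = 5.78e-05). A second probe set of Fosl2, of lower mean level, differed by 0.12.

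Btg2, an antiproliferative co-regulator, had the smallest p of all genes in the difference. It was at 9.71 and 9.69, then 9.32 and 9.31, in short days and at 9.27 and 9.47, then 11.16 and 11.37, in long days. It rose 3.72-fold in long days, and its steps differed by 2.28 ± 0.19 (adjusted p = 2.6e-09). Gadd45b, a stress sensor that promotes DNA demethylation and MAP kinase signalling, was at 8.59 and 8.21, then 8.12 and 8.11, in short days and at 7.99 and 8.20, then 9.93 or higher on both arrays, in long days. Its steps differed by 2.15 ± 0.19 (adjusted p = 2.7e-09), with 0.52 and 2.26 for its other 2 probe sets. For both genes the long-day ZT20 level lay close to the short-day ZT0 level, so the rise at long-day ZT0 made up most of the difference.

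Gem, a small GTPase that restrains calcium channels, was at 7.06 and 6.52, then 7.0 and 6.49, in short days and at 7.10 and 7.22, then 9.13 and 8.99, in long days. Its short-day change was -0.04 ± 0.19 and its long-day change 1.90 ± 0.19, a difference of 1.94 ± 0.27 (adjusted p = 4.6e-05). Egr2, of the same family as Egr1, was between 5.76 and 6.37 on the 6 arrays outside long-day ZT0 and at 7.45 and 7.39 there. Its steps differed by 1.71 ± 0.21 (adjusted p = 7.33e-06).

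Nr4a1, an orphan nuclear receptor induced by cAMP, was at 8.80 and 8.56, then 8.65 and 8.20, in short days and at 8.32 and 8.11, then 9.57 and 9.41, in long days. Its steps differed by 1.52 ± 0.29 (adjusted p = 0.00479). Without replicate 2 of long-day ZT20 the difference was 1.42 and did not pass, and the call was also lost without some other single arrays. The calls of Nfil3, Tef, Fut4 and Hdac4, given below, were likewise lost without other arrays besides that one. Dusp1, a phosphatase that switches off MAP kinases, was at 10.47 and 10.20, then 9.85 and 9.49, in short days and at 10.11 and 10.46, then 11.07 and 10.95, in long days. Here the 2 steps were of like size and opposite sign, 0.73 ± 0.17 in long days and -0.66 ± 0.17 in short days, and only the first passed on its own (adjusted p = 0.0362 against 0.548). The difference was 1.39 ± 0.23 (adjusted p = 0.00093).

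Fos, the archetype of the family, had the same direction and did not pass. It was at 10.41 and 10.49, then 10.12 and 9.30, in short days and at 9.59 and 10.39, then 10.71 and 10.71, in long days, so the replicates of short-day ZT0 and long-day ZT20 lay far apart. Its difference was 1.46 ± 0.59. Among the remaining members Nr4a2, a nuclear receptor close to Nr4a1, differed by 0.77 ± 0.24 (adjusted p = 0.458). Its other probe sets, of lower mean level, lay between -0.15 and 0.97.

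**Figure D2:**
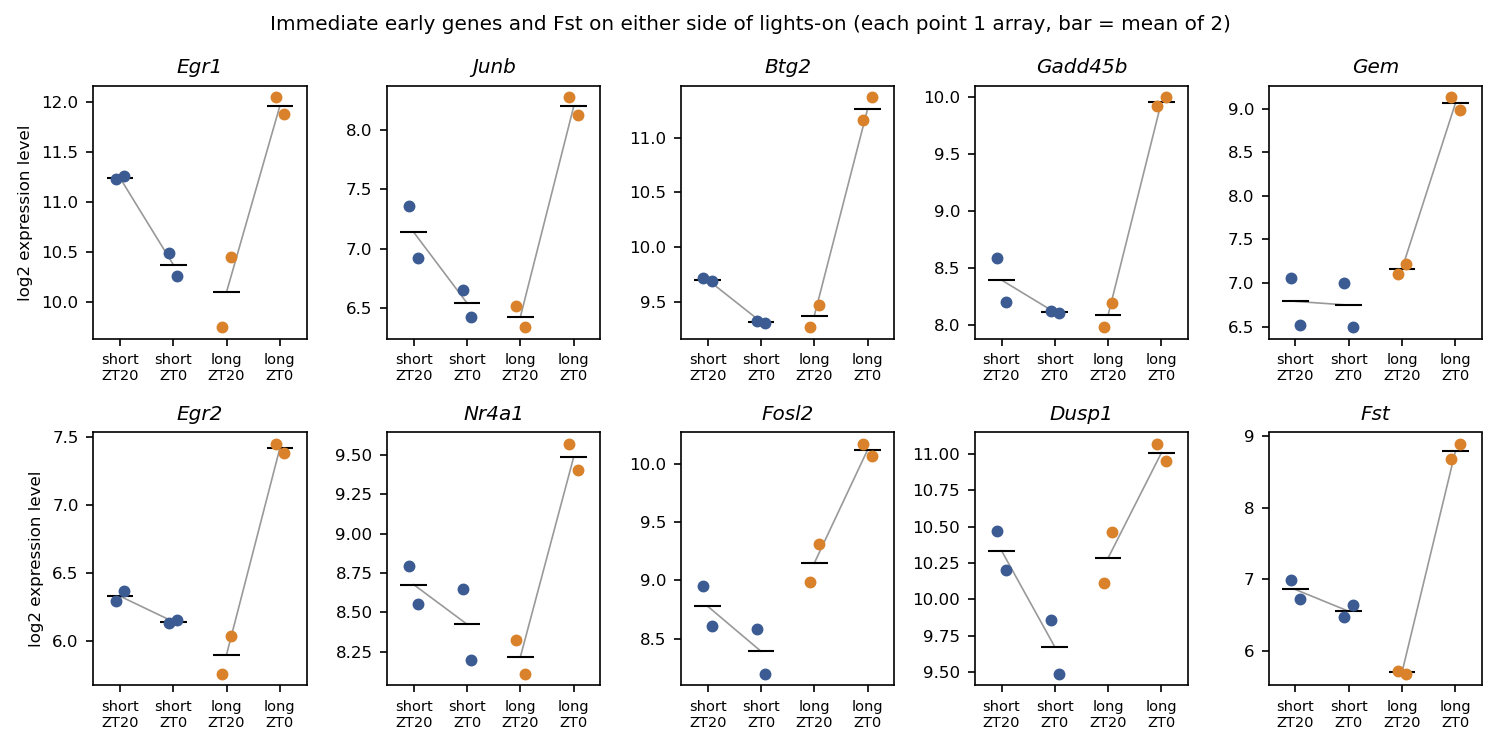
Log2 level (y axis) of 9 immediate early genes and Fst on the 8 arrays, by photoperiod and time (x axis); each point is 1 array, bars are means of 2 arrays, grey lines join the means of a photoperiod and the y axes do not start at 0. In every panel both long-day ZT0 arrays lie above the other 6.

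Over the whole day these 9 genes were highest at ZT0 under long days, 9 of 9, where 13.2% of all genes have their highest long-day mean. That level took part in their choice. Under short days, 7 of the 9 were highest at ZT20, where 12% of all genes are highest, and 0 at ZT0, where 19% are. Egr1 stood at 11.25 at short-day ZT20 and between 10.10 and 10.75 at the other short-day times, and Btg2 at 9.70 and between 9.03 and 9.32. For Egr1 and Btg2 the small short-day maximum and the large long-day maximum thus fell at the same clock hour, 3 h. That was before lights-on in one photoperiod and at lights-on in the other. Short-day levels at ZT20 also entered the difference that chose these genes.

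**Figure D3:**
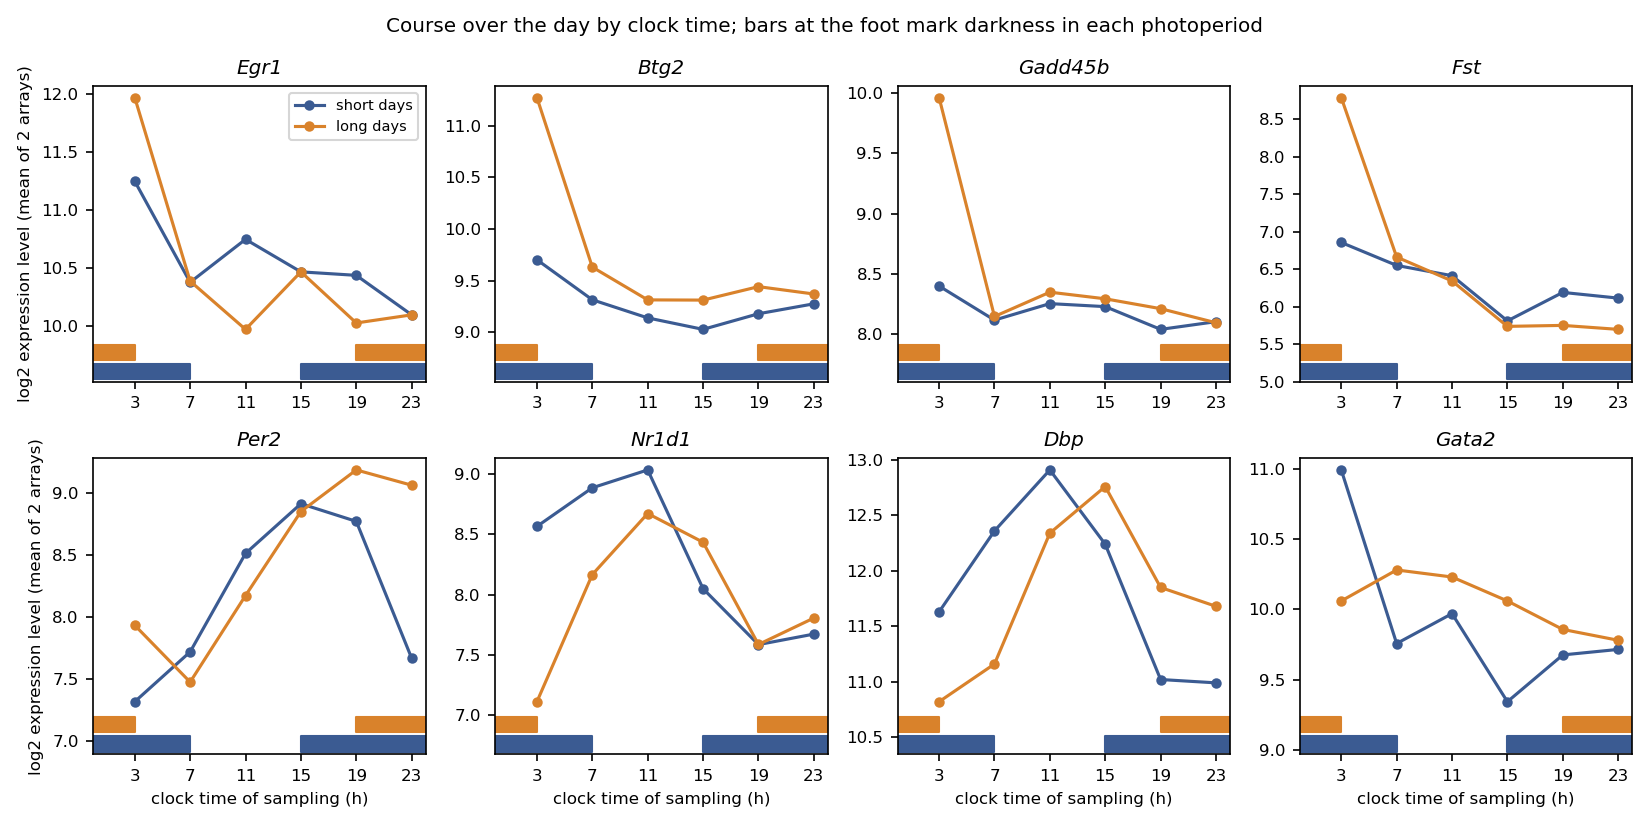
Log2 level (y axis, mean of 2 arrays) by clock hour of sampling (x axis) for 8 genes in short days (blue) and long days (orange); the bars at the foot mark darkness in each photoperiod. Egr1, Btg2, Gadd45b and Fst are highest at clock hour 3 in both photoperiods, with the long-day point above the short-day point, while Gata2 is highest there in short days alone.

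By the rule of likeness, Pearson's correlation with Egr1 over the 24 group means of the series, the genes closest to it were Junb (r = 0.873), Ier2 (r = 0.796), Nr4a1 (r = 0.787), Gadd45b (r = 0.767) and Btg2 (r = 0.749). These means share arrays and the groups used above, and no test is given. They also include the first long days, whose mice were younger. Car4, a carbonic anhydrase (r = 0.717), was the closest gene outside the immediate early list.

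The promoters of these genes show which known response elements they carry. RefSeq promoters (GRCm38.p6) were searched for 33 of the 41 genes, in 47 windows because some genes have several starts. The 250 bases before each start were searched on both strands. Entries on a single chromosome were left out of this search, though not of the shares below. A gene that was not searched may therefore still hold an element. A gene counts as holding an element when any of its windows does, whereas the shares below are per window, so the 2 are not on the same footing. The letters searched were the cAMP response element TGACGTCA, the E-box CACGTG, the D-box TTATGTAA or TTACGTAA, the ROR element TAGGTCA and, by name, the CArG box of serum response factor. A shorter relative of the cAMP element, TGACGCA, was added after the promoters had been read. None of these letter strings holds another. Of the 32851 promoters of the same length, 1.55% held the full cAMP element, 1.75% the short one, 6.02% an E-box, 0.931% a D-box, 2.23% a ROR element and 1.47% a CArG box.

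Of the 9 immediate early genes 7 were searched, and Egr1 and Gem were not. Of the 7, 2 held the full cAMP element (Btg2 and Dusp1), 1 the short one (Nr4a1), 3 an E-box (Dusp1, Egr2 and Gadd45b) and 1 a CArG box (Egr2). The E-box and the CArG box of Egr2 lie in windows of different starts. The windows of 4 of them are given 5′ to 3′ on the strand of the gene, ending at the base before the start, with matches in capitals, because they carry these elements in different number. Nr4a1 holds 4 copies of the short form and Dusp1 holds a full cAMP element next to an E-box.
Btg2 (chr1:134079156-134079405, minus strand): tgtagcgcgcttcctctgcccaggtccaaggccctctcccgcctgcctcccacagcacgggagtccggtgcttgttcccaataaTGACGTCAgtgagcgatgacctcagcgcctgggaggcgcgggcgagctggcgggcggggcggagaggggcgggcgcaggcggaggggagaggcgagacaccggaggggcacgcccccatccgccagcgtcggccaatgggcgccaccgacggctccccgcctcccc
Dusp1 (chr17:26508473-26508722, minus strand): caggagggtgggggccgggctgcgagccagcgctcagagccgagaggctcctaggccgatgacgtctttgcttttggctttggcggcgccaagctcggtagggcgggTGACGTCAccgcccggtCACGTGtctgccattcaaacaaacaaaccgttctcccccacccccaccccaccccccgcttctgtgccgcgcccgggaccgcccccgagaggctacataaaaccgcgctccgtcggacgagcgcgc
Nr4a1 (chr15:101266596-101266845, plus strand): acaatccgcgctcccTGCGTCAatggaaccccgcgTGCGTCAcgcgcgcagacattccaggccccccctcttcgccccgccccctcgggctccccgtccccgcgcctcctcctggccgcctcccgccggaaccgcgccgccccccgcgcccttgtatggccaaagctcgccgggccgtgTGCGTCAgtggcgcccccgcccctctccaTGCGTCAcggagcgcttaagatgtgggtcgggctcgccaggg
Gadd45b (chr10:80929841-80930090, plus strand): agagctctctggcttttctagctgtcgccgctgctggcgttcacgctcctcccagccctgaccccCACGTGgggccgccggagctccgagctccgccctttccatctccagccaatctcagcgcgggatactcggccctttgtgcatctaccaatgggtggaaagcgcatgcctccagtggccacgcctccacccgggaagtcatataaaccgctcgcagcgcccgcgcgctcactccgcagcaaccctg
A match is a description of the sequence, and binding was not measured.

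Clock genes made up the largest part of the lower steps. Of 22 measured clock genes 3 had a higher step in long days (Arntl, Npas2 and Nfil3) and 6 a lower one (Dbp, Per2, Nr1d2, Per3, Nr1d1 and Tef), beside 0.165% and 0.0605% of all genes, and the median of the list was -0.16. Without replicate 2 of long-day ZT20 these counts were 2 and 3: Arntl, Npas2, Per2, Nr1d2 and Per3 still passed, and Nfil3, Dbp, Nr1d1 and Tef did not. In long days 2 of the 22 rose and 6 fell across lights-on, beside 0.286% and 0.104% of all genes. In short days 1 fell, beside 0.011%.

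Among the activators, Arntl was at 9.74 and 9.71, then 9.21 and 9.29, in short days and at 8.93 and 8.26, then 9.61 and 9.74, in long days. The levels of short-day ZT20 and long-day ZT0, taken at the same clock hour, overlapped, and the steps ran in opposite directions with no overlap. The difference was 1.56 ± 0.22 (adjusted p = 4.11e-05) and 1.22 without replicate 2 of long-day ZT20. A second probe set of Arntl, of lower mean level, differed by 0.47. Npas2, a partner of Arntl, was at 6.86 and 6.85, then 6.23 and 6.03, in short days and at 5.66 and 5.59, then 6.23 and 6.34, in long days. It fell by 0.72 ± 0.13 in short days (adjusted p = 0.0234) and rose by 0.67 ± 0.13 in long days (adjusted p = 0.00548). These levels lie below the median of all probe sets, and a second probe set differed by 0.19. Clock itself differed by 0.55 ± 0.16 and did not pass.

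Nfil3, which represses through D-boxes, was at 7.30 and 7.57, then 6.64 and 7.01, in short days and at 7.32 and 7.04, then 7.83 and 7.60, in long days. Its difference of 1.15 ± 0.25 passed (adjusted p = 0.0209) although neither step did. It was lost without replicate 2 of long-day ZT20 (adjusted p = 0.213).

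Among the repressors, Per2 was at 7.30 and 7.34, then 7.65 and 7.78, in short days and at 8.80 and 9.31, then 7.92 and 7.95, in long days. It fell by 1.13 ± 0.14 across lights-on in long days (adjusted p = 8.08e-06) and changed by 0.40 ± 0.14 in short days, a difference of -1.53 ± 0.20 (adjusted p = 2.01e-05). At ZT0 the photoperiods were close for Per2, 0.21 apart, and at ZT20 they were 1.74 apart. Its other probe sets differed by -0.47 and -1.10. Per3 was at 9.83 and 9.88, then 10.07 and 10.24, in short days and at 10.62 and 10.97, then 9.97 and 9.97, in long days. Its difference was -1.12 ± 0.18 (adjusted p = 0.000688), with values from -1.33 to -0.09 for its 5 other probe sets. Per1, which shares the E-box loop, was between 8.81 and 9.55 on all 8 arrays and differed by 0.18 ± 0.24, which did not pass.

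Nr1d1 and Nr1d2, the REV-ERB repressors of Arntl and Nfil3, both had lower steps in long days. Nr1d1 was at 8.61 and 8.52, then 8.93 and 8.84, in short days and at 7.69 and 7.92, then 7.08 and 7.14, in long days, and its steps differed by -1.01 ± 0.19 (adjusted p = 0.00318). Its long-day levels were below its short-day levels at both times. Without replicate 2 of long-day ZT20 its difference was -0.90 and did not pass (adjusted p = 0.0601). Nr1d2 was at 11.74 and 11.77, then 12.32 and 12.06, in short days and at 12.15 and 12.76, then 11.69 and 11.71, in long days, a difference of -1.20 ± 0.19 (adjusted p = 0.000407). Its other probe set, of low level, differed by -0.31, and with the mean of both the call was lost (-0.75, adjusted p = 0.608).

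Dbp and Tef belong to the PAR bZIP factors, which activate through D-boxes and carry the clock signal to output genes. Dbp was at 11.68 and 11.59, then 12.22 and 12.50, in short days. At long-day ZT20 it averaged 11.68 ± 0.96 (SD, n = 2), with 12.36 on replicate 2, and at long-day ZT0 both arrays were at 10.82. That spread stands beside a difference between the steps of -1.59 ± 0.34 (adjusted p = 0.0202). Without replicate 2 of that group the difference was -0.91 and did not pass (adjusted p = 0.361), and it was lost in 6 of the 8 fits that left out 1 array. Tef was at 11.07 and 11.05, then 11.28 and 11.31, in short days and at 11.31 and 11.59, then 10.97 and 10.81, in long days. Its difference of -0.80 ± 0.16 (adjusted p = 0.00817) was -0.65 without that array (adjusted p = 0.165). With the mean of its probe sets it was -0.67 and did not pass.

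Timeless, which takes part in replication fork protection, fell by 1.22 ± 0.18 in long days (adjusted p = 7.92e-05), from 11.46 and 11.64 to 10.42 and 10.24. Its short-day arrays were at 9.90 and 10.01, then 9.78 and 9.54, and the difference of the steps, -0.93 ± 0.25, did not pass (adjusted p = 0.216).

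**Figure D4:**
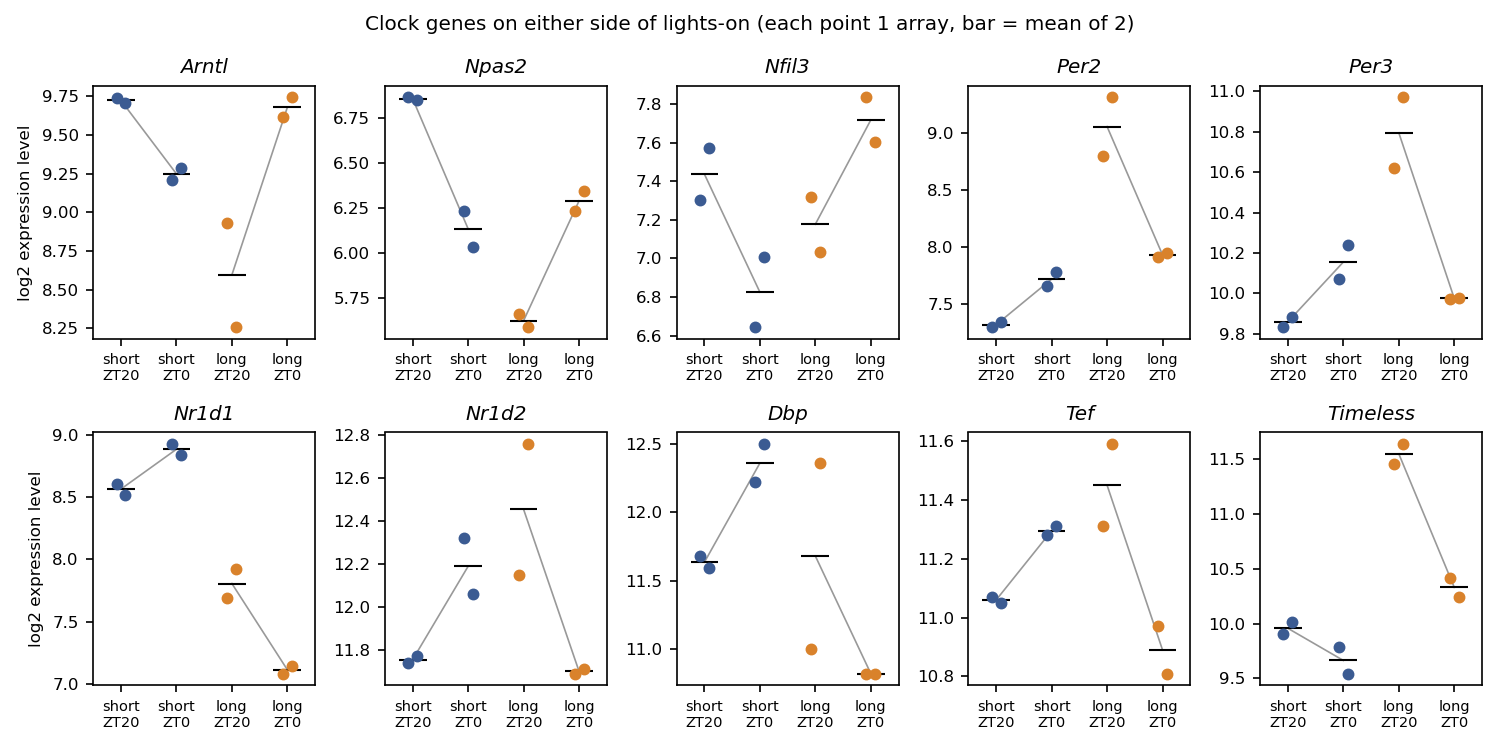
Log2 level (y axis) of 10 clock genes on the 8 arrays, by photoperiod and time (x axis); each point is 1 array, bars are means of 2 arrays, grey lines join the means of a photoperiod and the y axes do not start at 0. The means of Arntl, Npas2 and Nfil3 go up in long days and down in short days, those of the Per, Nr1d, Dbp and Tef panels do the reverse, Timeless goes down in both, and the long-day ZT20 arrays of Dbp lie far apart (SD 0.96, n = 2).

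Of the 6 clock genes with a lower step 5 were searched, of which 1 held an E-box (Tef) and 1 a D-box (Per3). All 3 with a higher step were searched, and Nfil3 held a ROR element, the type of element at which REV-ERB and ROR proteins compete. The windows of these 3 are shown in the same way, since each holds a different element of the loop. Per3 holds 2 D-boxes. The window of another start of Tef also holds an E-box and is not shown.
Per3 (chr4:151044666-151044915, minus strand): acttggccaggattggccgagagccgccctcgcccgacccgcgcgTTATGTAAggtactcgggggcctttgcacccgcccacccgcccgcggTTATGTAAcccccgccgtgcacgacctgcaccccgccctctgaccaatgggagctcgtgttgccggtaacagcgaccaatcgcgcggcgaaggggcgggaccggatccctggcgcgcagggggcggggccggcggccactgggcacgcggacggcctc
Tef (chr15:81802423-81802672, plus strand): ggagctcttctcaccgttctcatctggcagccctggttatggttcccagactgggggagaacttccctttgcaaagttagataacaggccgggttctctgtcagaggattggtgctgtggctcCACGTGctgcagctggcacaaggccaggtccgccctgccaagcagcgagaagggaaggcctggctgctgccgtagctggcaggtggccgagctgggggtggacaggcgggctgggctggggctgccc
Nfil3 (chr13:52981040-52981289, minus strand): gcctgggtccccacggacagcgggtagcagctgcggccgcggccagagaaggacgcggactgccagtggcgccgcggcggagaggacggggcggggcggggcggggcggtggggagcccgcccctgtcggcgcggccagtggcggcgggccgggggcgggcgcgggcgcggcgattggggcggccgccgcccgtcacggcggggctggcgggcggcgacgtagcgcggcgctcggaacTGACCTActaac
In the other clock genes that passed and were searched, no match means only that these letters are absent from the windows searched.

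**Figure D5:**
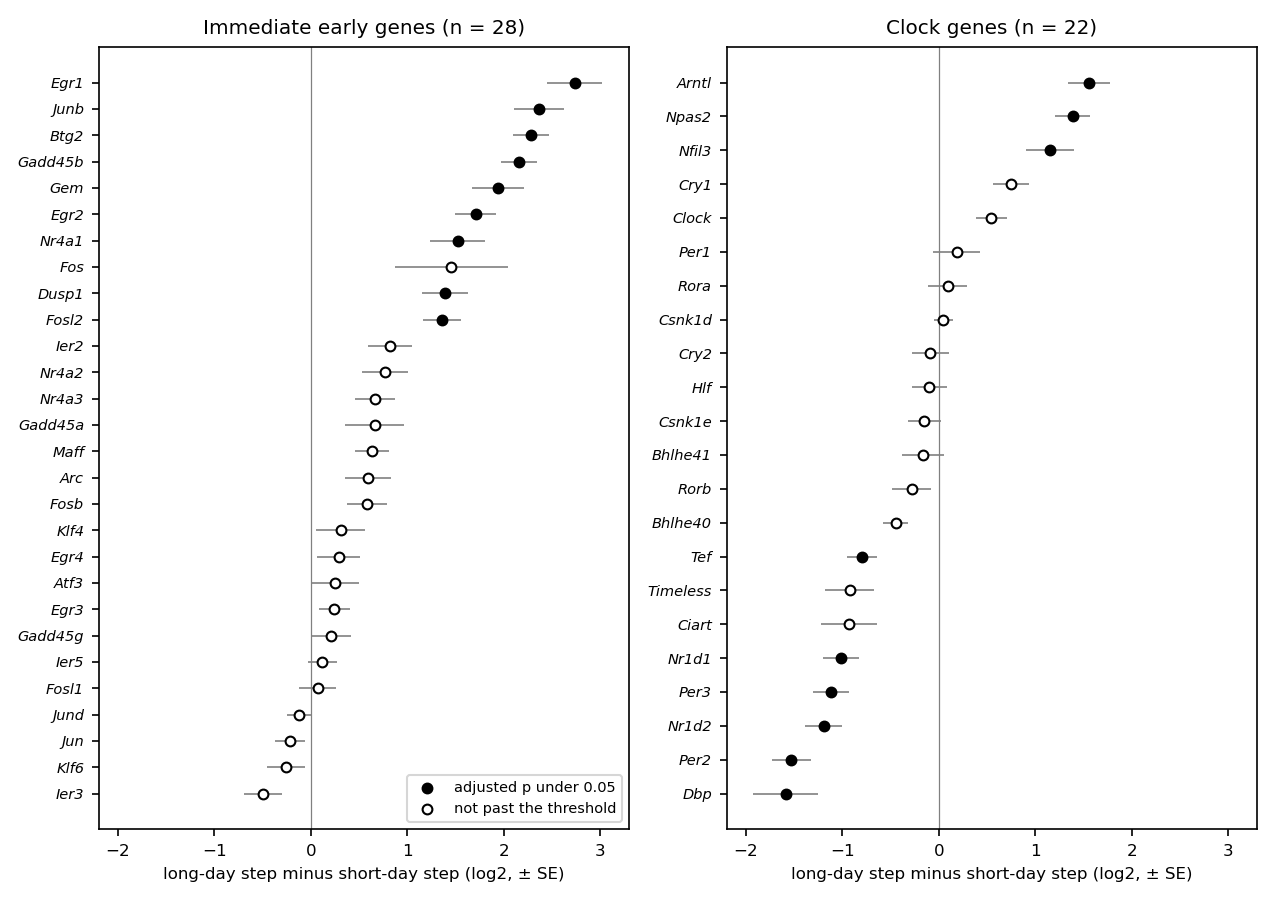
Difference of the steps, long days minus short days (x axis, log2, bars are SE), for all 28 measured immediate early genes and all 22 measured clock genes (y axis); filled points passed at an adjusted p under 0.05. All 9 filled immediate early genes lie right of 0, while the filled clock genes lie on both sides, 3 to the right and 6 to the left.

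Outside both lists the highest value was that of Fst, which encodes follistatin, a secreted protein that binds activin. Fst was at 6.98 and 6.73, then 6.47 and 6.63, in short days and at 5.71 and 5.68, then 8.68 and 8.89, in long days. Its lowest and its highest levels were thus both in long days. It rose 8.53-fold across lights-on there (3.09 ± 0.27, adjusted p = 2.45e-09), and its steps differed by 3.40 ± 0.38 (adjusted p = 8.76e-07), with 1.96 for its other probe set. Of the 18 measured genes of TGF-beta, activin and BMP signalling, 2 had a higher step, beside 0.165% of all genes. They were Fst and Id2, an inhibitor of helix-loop-helix factors. Id2 differed by 0.74 ± 0.17 (adjusted p = 0.041) and was lost in 7 of 8 fits without 1 array. The median of the list was 0.05, near that of all genes.

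Insm1, a zinc finger factor of endocrine cells, was at 9.52 and 9.56, then 8.82 and 8.99, in short days and at 9.47 and 9.74, then 11.04 and 10.75, in long days. Its levels at ZT20 overlapped between the photoperiods and its steps differed by 1.92 ± 0.28 (adjusted p = 0.00012). Arrdc4, an arrestin-domain protein, was between 7.34 and 8.11 on the 6 other arrays and at 9.24 and 9.39 at long-day ZT0, a difference of 1.58 ± 0.21 (adjusted p = 1.2e-05). Fut4, a fucosyltransferase, differed by 1.37 ± 0.27 (adjusted p = 0.00921), with -0.04 for its other probe set, and did not pass without replicate 2 of long-day ZT20 (adjusted p = 0.0719).

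Gata2, a transcription factor of thyrotropes that acts on the Tshb promoter, had a higher step in long days that lay mostly in its short-day values. It was at 10.87 and 11.12 at short-day ZT20 and between 9.65 and 10.08 on the 6 other arrays. It fell 2.35-fold across lights-on in short days (-1.24 ± 0.13, adjusted p = 2e-06), changed by 0.28 ± 0.13 in long days, and its steps differed by 1.51 ± 0.19 (adjusted p = 7.33e-06). Its short-day level also rose from ZT16 to ZT20, by 1.28 (adjusted p = 2.96e-07), so ZT20 stood apart from the times on either side.

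The rule for naming genes left 12 of the 30 higher genes unnamed; they are listed here after their values were seen. They were Klhl41 (1.35), Fgd3 (1.31), Tnfaip3 (1.24), Mdm1 (1.23), C2cd4b (1.08), Tent5a (0.95), Hey1 (0.86), Diras2 (0.79), Adamts15 (0.79), Sphkap (0.65), Lpcat3 (0.65) and Jade1 (0.64). Tnfaip3, an inhibitor of NF-kappaB, and Hey1, a Notch target, are regulators of signalling. Of these, Tent5a, Hey1, Adamts15, Sphkap and Lpcat3 did not pass without replicate 2 of long-day ZT20 (adjusted p = 0.0904, 0.0727, 0.165, 0.0524 and 0.0502). Tent5a and Diras2 were the 2 of the 30 whose short-day change was positive.

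The lower genes outside the clock list were 5. Pde10a, which degrades cyclic nucleotides, was at 9.21 and 9.22, then 9.80 and 10.19, in short days and at 9.82 and 9.94, then 9.05 and 9.25, in long days. Its 2 steps were of like size and opposite sign, 0.79 ± 0.17 in short days and -0.73 ± 0.17 in long days, a difference of -1.51 ± 0.24 (adjusted p = 0.000441). Its 4 other probe sets lay between -1.29 and 0.34, and with the most variable one in use the call was lost (adjusted p = 0.089). Cys1, a cilium-associated protein, was at 8.10 and 8.12, then 8.49 and 8.48, in short days and at 8.62 and 8.65, then 7.85 and 7.78, in long days, with replicates close together. It differed by -1.20 ± 0.15 (adjusted p = 6.66e-06), with 0.13 for its other probe set and -0.54 for the mean of both, which did not pass (adjusted p = 0.0837). Tspan4, a tetraspanin, differed by -1.16 ± 0.21, Hdac4, a class II histone deacetylase, by -0.85 ± 0.17, and Lonrf1, a RING finger protein, by -0.74 ± 0.12. Tspan4 and Hdac4 did not pass without replicate 2 of long-day ZT20 (adjusted p = 0.071 and 0.0672).

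Dusp4, a nuclear MAP kinase phosphatase, had the largest fall of the long-day step, by 2.03 ± 0.32 (adjusted p = 0.000275), from 10.49 and 10.16 to 8.23 and 8.37. Its short-day arrays lay between 8.00 and 8.43, and the difference of the steps, -1.79 ± 0.45, did not pass (adjusted p = 0.123). In the list of 15 MAP kinase phosphatases and feedback genes Dusp1 was the only one that passed in the difference, and Dusp1 rose while Dusp4 fell in the long-day step. Of 19 measured cAMP and CREB targets 2 had a higher step, Gem and Nr4a1, and 1 a lower one, Pde10a, with a median of 0.08. The shares of all genes were 0.165% and 0.0605%. The counts were 1 and 1 and the median 0.16 without replicate 2 of long-day ZT20. Gem and Nr4a1 are also members of the immediate early list.

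The hormone genes of the photoperiodic response did not pass in the difference. Tshb was at 10.83 and 10.43, then 10.68 and 10.51, in short days and at 13.76 and 13.93, then 14.13 and 14.07, in long days. The photoperiods were far apart at both times, and the steps differed by 0.29 ± 0.55. Cga was between 13.38 and 13.93 on all arrays and differed by 0.31 ± 0.20. Eya3, a co-activator of Tshb, differed by -0.07 ± 0.26. Dio2, which activates thyroid hormone, was at 12.32 and 12.31, then 12.56 and 13.02, in short days and between 13.46 and 13.62 in long days, a difference of -0.61 ± 0.20 (adjusted p = 0.584). Mtnr1a was at 8.56 and 8.20, then 7.63 and 7.56, in short days and at 9.85 and 8.30, then 9.32 and 9.60, in long days. Its difference was 1.17 ± 0.57, and 0.40 without replicate 2 of long-day ZT20. Of the 11 measured genes of the thyrotropin and photoperiod list 1 had a higher step (Gata2) and 1 a lower one (Tef), the latter lost without that array.

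Most other lists held no gene that passed in the difference. Only 0.225% of all genes passed, so lists of this size would mostly hold none. None passed among 20 melatonin and G protein signalling genes, 11 EYA and DACH genes with their homeobox partners, 11 thyroid hormone handling genes, 13 VEGF and angiogenesis genes, 11 heat shock genes, 24 endoplasmic reticulum folding genes, 14 secretory granule genes, 33 mitochondrial complex I genes or 18 cell cycle genes. Angpt2, an angiopoietin of the VEGF and angiogenesis list, passed without replicate 2 of long-day ZT20, at 0.74 (adjusted p = 0.0274). Of 15 glucocorticoid responsive genes 1 passed, Dusp1. Of 13 cholesterol synthesis genes none passed, although 12 differences were positive, with a median of 0.22 against 0.01 over all genes. In the long-day step alone, Hspa1b and Dnajb1, heat shock proteins, fell by 0.77 ± 0.18 and 0.50 ± 0.11, and Herpud1, of the response to misfolded proteins, fell by 0.52 ± 0.10 (adjusted p = 0.0484, 0.0345 and 0.0095). Fkbp5, a glucocorticoid target, fell by 0.60 ± 0.14 (adjusted p = 0.0401). None of these 4 passed in the difference.

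No cell type marker passed in the difference, over 13 lists that include the pars tuberalis. Since only 0.225% of all genes passed, this count says nothing about cell composition. All 12 meningeal and fibroblast markers had positive differences, with a median of 0.27, and 0.53 without replicate 2 of long-day ZT20. Their mean level lay at 10.50 to 10.62 at short-day ZT20, 10.44 to 10.56 at short-day ZT0, 10.22 to 10.70 at long-day ZT20 and 10.68 to 10.69 at long-day ZT0. The 10.22 was that of replicate 1 of long-day ZT20, which the fit without replicate 2 keeps. Col1a1, a collagen of fibroblasts, rose by 0.59 ± 0.14 in the long-day step (adjusted p = 0.0473). Ttr, the leading transcript of the choroid plexus, was at 14.05 on replicate 1 of short-day ZT20 and between 10.38 and 12.17 on the other 7 arrays. In pooled punches fewer cells of a type and less RNA per cell cannot be told apart, and the part of other cell types in the results above was not tested.

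Because lights-on came at different clock hours and after nights of different length, the long-day step was also set against 2 other short-day intervals. Against the short-day change over the same clock hours, ZT16 to ZT20, 27 genes passed (0.148% of genes), 17 higher (0.0934%) and 10 lower (0.055%), and 14 of the 27 were among the 41. Of the immediate early genes 4 had a higher step (Btg2, Gadd45b, Gem and Egr2); Egr1 was at 0.72 (adjusted p = 0.682), since it rose by 1.15 in the short-day interval too (adjusted p = 0.00337). Fst kept a difference of 2.35 (adjusted p = 0.000784). Of the clock genes 1 had a higher step, Cry1, a repressor, at 1.45 (adjusted p = 1.43e-05), and 2 a lower one, Timeless at -2.14 and Nr1d1 at -1.59 (adjusted p = 1.99e-06 for both). Gata2 turned to -1.0 (adjusted p = 0.00768), Lonrf1 turned to 0.58 (adjusted p = 0.021), and Npas2 was at -0.11.

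Against the short-day change over the same hours of darkness, ZT12 to ZT16, 31 genes passed (0.17% of genes), 27 higher (0.148%) and 4 lower (0.022%). Of the immediate early genes 10 had a higher step, with Gem at 2.50, Egr1 at 2.20 and Junb at 1.97, and 0 of the 22 clock genes passed, with Per2 at -0.03 and Arntl at 0.46. Fst was at 3.17 (adjusted p = 2.77e-06). These 3 tests share the long-day arrays, and the difference of one test from another was not tested. Short-day ZT20 also enters the main test and the one over the same clock hours, with opposite sign. A high level there raises the first and lowers the other. Short-day ZT16 enters both added tests with opposite sign, and its replicates had the lowest correlation of the 24 groups (r = 0.9935).

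At a single time the photoperiods differed in far more genes. At ZT0, 3630 genes passed (20% of genes), 1041 higher (5.72%) and 2589 lower (14.2%) in long days, and at ZT20 3564 (19.6%), 971 higher (5.34%) and 2593 lower (14.3%). With each array centred on its median the splits were 1910 to 1533 and 1878 to 1318, so the side on which most genes fell depended on the centring. The count at ZT0 was 873 with the actin covariate, 1133 without replicate 2 of short-day ZT0 and 1653 without replicate 2 of long-day ZT0. The count at ZT20 was 1494 with the covariate, and 1938, 1960 and 2342 without replicate 1 or 2 of short-day ZT20 or replicate 1 of long-day ZT20. Of the 28 immediate early genes 13 were higher and 3 lower in long days at ZT0, and 1 was higher and 5 were lower at ZT20. Of the 22 clock genes 8 were higher and 4 lower at ZT0, and 10 were higher and 3 lower at ZT20.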

How the data were processed

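Expression was measured on 48 Affymetrix arrays of 4 lighting conditions, 6 times of day and 2 replicates, of which 8 are compared here. The deposited values are log2 probe set levels that the authors made with RMA in R 2.8.0, per the submitters' processing notes, so background correction, quantile normalization and summary came before deposit and shrink differences near background. No further filter was used. Of 45101 probe sets, 34958 had 1 symbol in the platform annotation, 932 several and 9211 none. Each gene was given by its probe set of highest mean, which left 18194 genes. Their number, 2 per group, limits the precision of the arrays.

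A mean for each of the 24 groups was fitted over all 48 arrays with limma 3.58.1 in R 4.3.3 (24 residual degrees of freedom, empirical Bayes with a trend). Tests were two-sided, with Benjamini-Hochberg adjustment over all genes and a threshold of 0.05. The contrast was ZT0 minus ZT20 in long days, minus the same in short days. On simulated data of 18194 genes for this contrast, 93% of changes of 1 and 100% of changes of 2 (log2) were recovered, with 7 false calls. The simulated noise was normal, with the same spread in every group. It thus left out the wider spread of long-day ZT20, and recovery in the real data may be lower.

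The comparison, the 30 gene lists (13 of cell type markers) and the alternatives were chosen with earlier results of these data known. Named genes were the 15 largest rises and falls in the difference, the 8 largest in each step, clock and immediate early genes that passed, from each remaining list the members with the smallest p (at most 4), and Tshb, Cga, Eya3, Dio2, Mtnr1a, Per1, Per2, Nr1d1, Dbp, Arntl, Egr1, Junb, Fos, Btg2, Gadd45b, Gem and Fst; the text names only some of these 129. Alternatives were other sets of arrays, array weights, filters, probe set choices, scalings, the actin covariate, replicate blocks, leaving out each array, and 2 other short-day intervals. Promoters were those of RefSeq, GRCm38.p6.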

Additional observations from a re-analysis of the deposited data

Results flagged for a closer look

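The test of the difference itself marked 29 of the named genes as having steps across lights-on that differ between the photoperiods (limma, adjusted p below 0.05, 2 arrays in each of the 4 groups). The immediate early genes among them differed by 2.73 (Egr1), 2.36 (Junb), 2.28 (Btg2), 2.15 (Gadd45b), 1.94 (Gem), 1.71 (Egr2), 1.52 (Nr4a1), 1.39 (Dusp1) and 1.36 (Fosl2) on the log2 scale. The clock genes differed by 1.56 (Arntl), 1.39 (Npas2), 1.15 (Nfil3), -0.80 (Tef), -1.01 (Nr1d1), -1.12 (Per3), -1.20 (Nr1d2), -1.53 (Per2) and -1.59 (Dbp). The others were Fst at 3.40, Insm1 at 1.92, Arrdc4 at 1.58, Gata2 at 1.51, Fut4 at 1.37, Id2 at 0.74, Lonrf1 at -0.74, Hdac4 at -0.85, Tspan4 at -1.16, Cys1 at -1.20 and Pde10a at -1.51. With 2 arrays per group, no group could be searched for a sample far from the others.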

How the results depend on the processing

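The difference between the steps passed in 27 to 57 genes over 26 alternatives, within 1.5 times of 41 in all but the comparison over the same clock hours (27). There the immediate early genes with a higher step were 4, the clock genes 1 higher and 2 lower, and Gata2, Npas2 and Lonrf1 turned to -1.0, -0.11 and 0.58. Over the same hours of darkness the clock genes were 0 higher and 0 lower. There 31 genes passed, of which 17 were among the 41, so a like count does not mean the same genes. With the 24 arrays of both photoperiods alone, 3 clock genes had a lower step, 35 genes passed in the long-day step and 1 in the short-day step. Array weights gave 41 in the long-day step. The short-day step gave 1 with 8 arrays, a mean of at least 6, a highest group mean at the median or above, quantile normalization again, or the actin covariate, and 4 with the mean of probe sets. The actin covariate left 873 genes between photoperiods at ZT0 and 1494 at ZT20. The causes were not tested.

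Leaving out each of the 8 arrays in turn gave 31 to 46 genes in the difference, 31 to 75 in the long-day step, 1 to 5 in the short-day step, 1133 to 3751 between photoperiods at ZT0 and 1938 to 3641 at ZT20. The higher steps were 8 to 10 among immediate early genes and 2 to 3 among clock genes, and the lower steps 3 to 7 among clock genes. Of the 41 genes, 10 of the 30 higher and 5 of the 11 lower were lost in at least 1 such fit. Without replicate 2 of long-day ZT20 5 further genes passed, Filip1l, Zic2, Plekhg1, Angpt2 and Cxcl11. That array left out together with replicate 2 of long-day ZT16, an alternative chosen after seeing the data, gave 43 genes.

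Replicate numbers are shared by the groups, but deviations of same-numbered arrays correlated at 0.0138 to 0.33 between groups, so the numbers were not taken as pairs. With a replicate block 45 genes passed in the difference, 51 with a block by condition and 57 with a block over the 8 arrays alone. With 2 arrays per group, smaller differences were not detectable in genes with noisy replicates such as Fos.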

Other observations

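Across all 45101 probe sets in place of 1 per gene, 62 passed in the difference between the steps, 42 of them higher. Of the 9211 probe sets without a symbol 4 passed, all 4 higher, and of the 932 with several symbols 0 passed in this limma fit. These 4 are not named here.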
